A study of Mus musculus with 19 samples.

Results

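Upper layer neuron identity genes are the transcription factors and markers by which neurons of layers 2 to 4 of the neocortex are recognised. The 9 genes taken here were chosen by name: Cux1, Cux2, Pou3f1, Pou3f2, Pou3f3, Lhx2, Rasgrf2, Mdga1 and Calb1. They were chosen with earlier results of these data known. Of the 9, 8 were matched to the deposited gene tables, which list 24130 genes in all. Pou3f2 was not matched by gene or transcript identifier and is not analysed here. All 8 matched genes passed the filter on precision, a widest 95% interval of at most 50% of the mean FPKM, which 11411 genes of the series passed. FPKM are fragments per kilobase of model, scaled to the mapped fragments of the library, so that levels can be compared between genes per length.

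RNA came from primary somatosensory cortex (S1) of male C57BL/6 mice aged 56 days, without any treatment or genetic change named in the labels. The cortex was cut into 6 segments from the surface to the white matter, which by the labels hold mostly layers 1 to 3 (A), layer 4 (B), layer 5 (C and D), layer 6 (E) and layer 6b (F). Segment B was sequenced as 2 libraries (B1 and B2), which pool the 4 mice of 1 litter each. A, C, D, E and F are represented by 1 library each, which by the paper pools the same 8 mice. None of the 7 libraries therefore stands for a single animal. Dorsal and lateral cortex (12 samples) are not analysed here.

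Projection neurons of the neocortex are born from the inside out, those of the deep layers first and those of layers 2 to 4 last, and neurons of each layer keep a set of transcription factors into adulthood. Cut homeodomain factors (Cux1, Cux2), class III POU factors (Pou3f1 to Pou3f3) and the LIM homeodomain factor Lhx2 bind DNA, and Rasgrf2, Mdga1 and Calb1 act in signalling, adhesion and calcium buffering. Several are also expressed elsewhere: Calb1 is known in classes of interneurons, and Pou3f1 in layer 5.

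The estimated depth was 31300000 fragments in A, the lowest, and 75000000 fragments in B2, the highest, and the deposited 95% intervals cover the estimate within a library and no variation between mice. Mitochondrial genes took 5.03% (F) to 21.8% (A) of the summed gene FPKM. The dissections were read against known layer genes. Their lists were written with earlier results of these data known, so this is not an independent check. With the FPKM as deposited, all 10 deep layer genes tested lay lower in A, B1 and B2 than in C to F on average. So did 71.2% of all genes tested, a share that holds for this scaling. The summed FPKM of 6 oligodendrocyte markers went from 287 in A to 11490 in F, and that of 4 striatal markers reached 31.5 in F against 3.14 to 13.9 in the other libraries. The 4 meningeal markers summed to 12.4 FPKM in A and to 1.53 to 2.53 in the other libraries.

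Promoter sequence from RefSeq (GRCm38.p6) was matched for 7 of the 9 genes, and Calb1 and Pou3f1 had no entry in the table used. Where the 120 bases before the start site touch no annotated exon of any gene, they can be shown without transcribed sequence, which among the analysed genes left the starts of Cux2-202 and Rasgrf2, of Lhx2-203 and of Pou3f3. The first 2 belong to genes with large differences between superficial and deep segments, the third to an isoform listed in only 2 libraries, and the fourth to a gene without such a difference. They read 5′ to 3′ towards the start site, and capitals mark, on either strand, a CCAAT box, a TATA box (spelled TATAAA), a GC box (spelled GGGCGG) or the octamer bound by POU factors (spelled ATGCAAAT):
Cux2 (chr5:122049852-122049971, minus strand): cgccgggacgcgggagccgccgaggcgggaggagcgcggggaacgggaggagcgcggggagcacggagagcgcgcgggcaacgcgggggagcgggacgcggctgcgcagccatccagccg
Rasgrf2 (chr13:92131829-92131948, minus strand): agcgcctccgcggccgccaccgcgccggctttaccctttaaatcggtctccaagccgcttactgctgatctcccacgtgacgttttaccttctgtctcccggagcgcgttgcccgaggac
Lhx2 (chr2:38339161-38339280, plus strand): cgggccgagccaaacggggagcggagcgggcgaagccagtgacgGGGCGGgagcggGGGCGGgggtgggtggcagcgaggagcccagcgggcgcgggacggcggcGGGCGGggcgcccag
Pou3f3 (chr1:42695648-42695767, plus strand): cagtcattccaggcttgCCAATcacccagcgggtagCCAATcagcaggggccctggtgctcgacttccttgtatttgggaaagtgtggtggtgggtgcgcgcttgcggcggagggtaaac
Over the 250 bases before the start, Cux2-202 and Rasgrf2 held none of the 4 motifs, Lhx2-203 held the GC box at 4 positions and Pou3f3 held the CCAAT box at 3 and the GC box at 1. Among all 32851 promoters of the table, 33.8% held the CCAAT box on either strand, 32.7% the GC box, 12.4% the TATA box and 1.60% the octamer. No match overlapped another in these windows. The start shown for Rasgrf2 lies 172 bases from that of Rasgrf2-203, a listed isoform of the second of the 2 places listed for this gene, and the other 3 lie at the annotated start of their isoform.

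Cux2, a cut homeodomain factor known for shaping dendrites and spines of upper layer neurons, is gene ENSMUSG00000042589 at chr5:122308396-122499860 (mm9). Its FPKM was 37.9 in A, 43.5 and 28.6 in B1 and B2, 9.17 and 3.21 in C and D, and 2.44 and 2.82 in E and F. The 3 superficial libraries (A, B1 and B2) lay above the 4 deep ones (C to F) with a gap of 3.11-fold between B2 and C, and C stood between the superficial libraries and D to F. The intervals of D and F, and of F and E, overlapped. On the log2(FPKM + 0.1) scale Cux2 was 3.22 higher in superficial than in deep segments (95% interval 2.22 to 4.22, adjusted p = 0.029, limma, 2-sided), the largest difference of the 8 genes and number 21 of 11411. In such bulk segments, fewer cells of a type and less RNA per cell cannot be told apart.

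Cux1, the paralog of Cux2 in the same chromosome (ENSMUSG00000029705, chr5:136724005-137043301), had 33.4 FPKM in A, 38.1 and 33.8 in B1 and B2, 17.2 and 10.5 in C and D, and 9.73 and 11.8 in E and F. The sides did not overlap, the gap between A and C was 1.94-fold, and the deep level stayed higher than that of Cux2 in every deep library. Cux1 was 1.54 higher in superficial segments (95% interval 1.04 to 2.04, adjusted p = 0.031). Across the 7 libraries the log2 levels of Cux1 and Cux2 had a Pearson correlation of 0.993, given as a description over libraries that share mice.

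Rasgrf2 (ENSMUSG00000021708), an exchange factor that activates Ras in response to calcium, is listed at 2 places on chromosome 13 that lie 665221 bases apart in mm9. The level at the first place (chr13:92020005-92127594) was 28.4 FPKM in A, 28.8 and 33.1 in B1 and B2, 9.32 and 6.12 in C and D, and 5.87 and 3.72 in E and F. Superficial and deep libraries did not overlap, the gap between A and C was 3.05-fold, and F lay below every other library. The difference was 2.32 (95% interval 1.66 to 2.98, adjusted p = 0.023). At the second place (chr13:92792816-92901611), whose widest interval was 55.9% of its mean and which therefore was not tested, FPKM ran from 11.5 in A and 20.9 in B1 down to 3.39 in F, and the first place exceeded the second in all 7 libraries, by 1.10 to 2.47 times. With both places summed the difference remained called.

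Calb1 (ENSMUSG00000028222, chr4:15808411-15835211), which encodes the calcium buffer calbindin, had 39.5 FPKM in A, 29.7 and 33.9 in B1 and B2, 10.8 and 7.02 in C and D, and 6.42 and 3.54 in E and F. The sides did not overlap and the highest level was 11.2 times the lowest. Calb1 was 2.38 higher in superficial segments (95% interval 1.60 to 3.17, adjusted p = 0.032). Its widest interval was 37.1% of the mean, the least precise of the 8 genes.

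Lhx2 (ENSMUSG00000000247, chr2:38194801-38225253), a selector gene of the embryonic cortex, had 24.8 FPKM in A, 34.5 and 19.9 in B1 and B2, 18.8 and 14.8 in C and D, and 12.1 and 14.3 in E and F. Every superficial library lay above every deep one, but B2 and C differed by only 1.06-fold and their intervals overlapped. The difference of 0.79 (95% interval 0.25 to 1.33) had an adjusted p of 0.086.

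Mdga1 (ENSMUSG00000043557, chr17:29964903-30024827), an immunoglobulin-like protein on the cell surface that binds neuroligins, had the lowest levels of the 8 genes, with 3.17 FPKM in A, 3.08 and 1.97 in B1 and B2, 1.24 and 1.13 in C and D, and 1.15 and 2.15 in E and F. F exceeded B2 by 1.09-fold, with overlapping intervals, so that the sides overlapped. The difference was 0.93 (95% interval 0.26 to 1.59, adjusted p = 0.092).

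Of the POU factors, Pou3f1 (also Oct6 or SCIP) is listed in gene ENSMUSG00000078236 (chr4:124334896-124337899) and was matched through its transcript. It had 15.0 FPKM in A, 19.5 and 13.2 in B1 and B2, 16.2 and 14.6 in C and D, and 5.19 and 4.72 in E and F. The layer 5 segments C and D held levels within the range of the superficial libraries, and E and F were 2.53-fold or more below all the others. The difference between superficial and deep was 0.83 (95% interval -0.25 to 1.91, adjusted p = 0.233).

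Pou3f3 (also Brn1, ENSMUSG00000045515, chr1:42753991-42757052), which acts together with Pou3f2 in the production and migration of upper layer neurons, had 11.8 FPKM in A, 31.5 and 18.5 in B1 and B2, 21.4 and 21.8 in C and D, and 17.4 and 17.2 in E and F. The lowest and the highest level both lay in superficial libraries, and C to F spanned 17.2 to 21.8. The difference was -0.02 (95% interval -0.73 to 0.69, adjusted p = 0.964), and it turned to 0.30 with libraries scaled by the median of ratios or corrected for GC content.

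**Figure D1:**
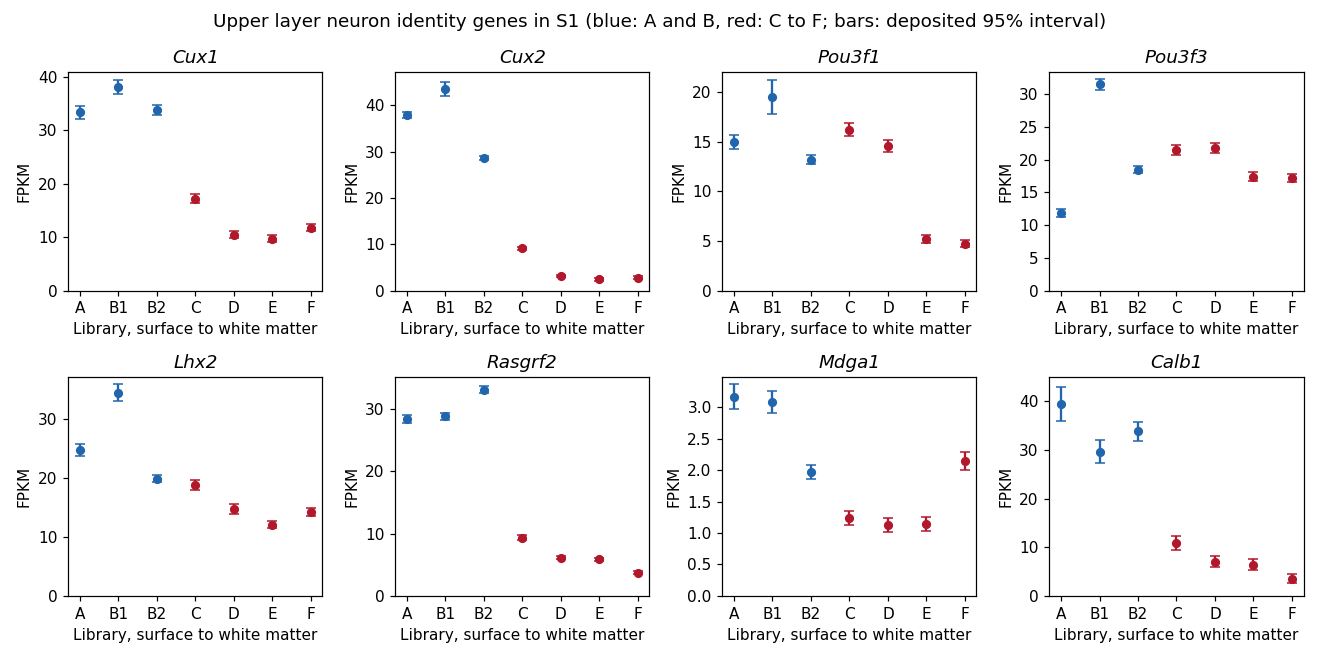
FPKM of 8 upper layer neuron identity genes (y axis, from 0) in the 7 S1 libraries ordered from the surface to the white matter (x axis), with the deposited 95% interval as bars, A and B in blue and C to F in red. Cux2 falls from 43.5 in B1 to 2.44 in E, while Pou3f3 spans 11.8 to 31.5 with its lowest and highest level both in blue points.

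In the test of superficial against deep segments, 4 of the 8 genes were called higher in superficial segments (Cux2, Calb1, Rasgrf2 and Cux1), none was called lower, and 4 did not pass (Mdga1, Pou3f1, Lhx2 and Pou3f3). Of all 11411 genes tested, 0.184% were called higher and 0.307% lower at an adjusted p under 0.05. At an unadjusted p under 0.05, 6 of the 8 genes (the 4 called, Lhx2 and Mdga1) and 4.84% of all genes were higher in superficial segments. All superficial libraries lay above all deep ones for 5 of the 8 genes, the 4 called and Lhx2, and for 4.71% of all genes. The median difference of the 8 genes was 1.23 against -0.30 over all genes tested. The median over all genes depended on the scaling of the libraries. It was 0.005 by the median of ratios, -0.013 after GC correction and -0.16 without mitochondrial genes. The shares of all genes in this paragraph hold for the FPKM as deposited.

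These calls rest on few libraries. The spread holds differences between layers of a side and between single dissections and libraries. Only B1 and B2 pool different mice. The deep libraries all pool the same 8 mice, so the spread of that side holds no variation between mice. The number of the 8 genes called fell from 4 to 0 without A, without B1, without D or without E, to 2 without F (Rasgrf2 and Calb1), to 0 with B1 and B2 averaged, and to 1 without the filter on interval width (Rasgrf2). Cux1, Cux2, Rasgrf2 and Calb1 kept their direction in each of these fits with differences of at least 1.44, 3.02, 2.10 and 2.10. Without B2 or without C all 4 were called. The number of all genes called moved as well. It was 56 (21 higher) with all libraries and 10 to 316 (7 to 80 higher) with single libraries left out. Of all genes 80 were called higher without B2, 13 without A and 17 without B1. With B1 and B2 averaged 26 were called higher, and 20 without the filter.

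**Figure D2:**
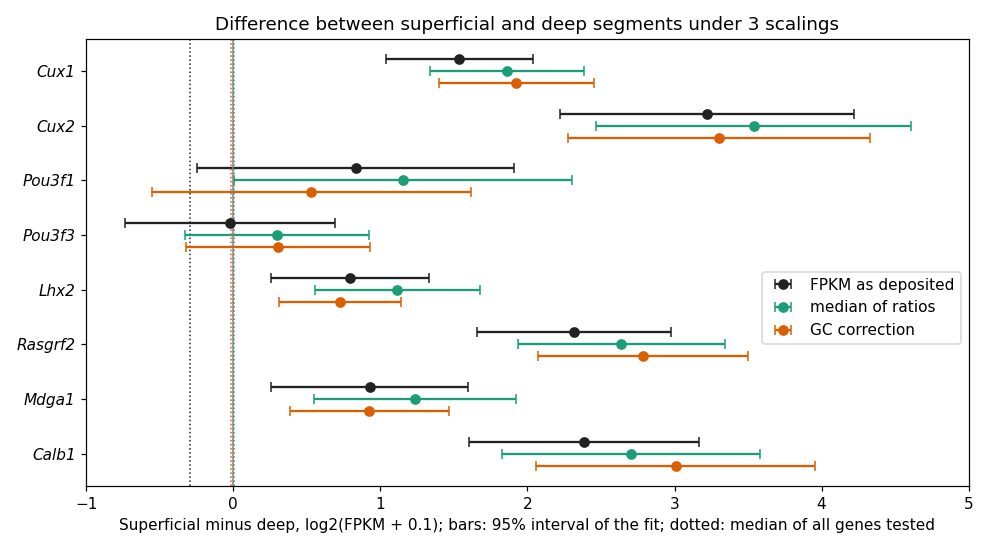
Difference between superficial (A, B1, B2) and deep (C to F) libraries of S1 for 8 genes (y axis) on the log2(FPKM + 0.1) scale (x axis), with the FPKM as deposited, scaled by the median of ratios and corrected for GC content. Bars are the 95% interval of the limma fit and dotted lines the median of all genes tested. Cux1, Cux2, Rasgrf2 and Calb1 lie above 1 under all 3 scalings, and Pou3f3 lies at -0.02, 0.30 and 0.30.

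A trend with segment position, fitted as a linear and a quadratic term, was called for 6 of the 8 genes: Calb1 (adjusted p = 0.0027, limma F-test), Cux2 (0.0047), Rasgrf2 (0.0053), Pou3f1 (0.011), Cux1 (0.012) and Mdga1 (0.029). The test called 44.2% of all genes. Lhx2 (adjusted p = 0.062) and Pou3f3 (0.271) did not pass. Without A, 4 of the 8 were called, since Pou3f1 and Mdga1 were lost, and without B1 all 8 were called. Over the fits with a single library left out, the test called 1240 to 6773 genes in all. The share of 44.2% therefore holds for the fit of all 7 libraries only, and the counts move with the number of all genes called.

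Neighbouring segments were compared by whether the deposited intervals overlap. These intervals cover error within a library only, and the replicates B1 and B2 themselves did not overlap at 66.4% of all genes. The counts therefore describe these libraries. Differences between layers cannot be told apart from those between single dissections and libraries. Between A and B, 62.8% of all genes did not overlap in either direction with both B1 and B2. Calb1 as a gene was higher in A, as were 20.2% of all genes, and Pou3f3 was lower, as were 42.6%. The coding isoform Calb1-201 went the other way without overlap, with 14.3 FPKM in A against 16.7 in B1 and 22.1 in B2. By the median of ratios Cux1, Cux2, Rasgrf2, Mdga1 and Calb1 were higher in A, as were 30.3% of all genes. With intervals widened 2 times Pou3f3 alone remained, lower in A, as were 31.1% of all genes. Between B and C, 5 of the 8 genes were higher in B (Cux1, Cux2, Rasgrf2, Mdga1 and Calb1) and none in C, where 37.3% of all genes did not overlap in either direction and 7.71% were higher in B. Between C and D, 6 of the 8 were higher in C (Cux1, Cux2, Pou3f1, Lhx2, Rasgrf2 and Calb1), where 34.3% of all genes did not overlap in either direction and 15.5% were higher in C. Between D and E, Cux2, Pou3f1, Pou3f3 and Lhx2 were higher in D, where the shares of all genes were 45.1% in either direction and 17.3% higher in D. Between E and F the shares of all genes were 53.8% in either direction, 25.0% higher in E and 28.7% higher in F. Rasgrf2 and Calb1 were higher in E, and Cux1, Lhx2 and Mdga1 were higher in F, with 11.8 against 9.73, 14.3 against 12.1 and 2.15 against 1.15 FPKM. The summed oligodendrocyte markers were 3787 FPKM in E and 11490 in F beside this last step, and their part in it was not tested.

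The place of the highest level depended on the scale of the libraries. As deposited, all 8 genes were highest in A, B1 or B2: Mdga1 and Calb1 in A, Cux1, Cux2, Pou3f1, Pou3f3 and Lhx2 in B1 and Rasgrf2 in B2. Scaled by the median of ratios, A rose relative to the rest (size factor 0.766, against 0.942 to 1.15) and 5 of the 8 genes were highest in A (Cux1, Cux2, Rasgrf2, Mdga1 and Calb1). Corrected for GC content, 4 were highest in A and Pou3f1 was highest in C. Without B1, Pou3f1 was highest in C and Pou3f3 in D. The shares of all genes with their highest level in these libraries were not computed. The counts therefore describe the 8 genes and do not set them apart from other genes.

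The replicates of layer 4 differed at these genes. B1 was higher than B2 with intervals that did not overlap at 6 of the 8 genes (Cux1, Cux2, Pou3f1, Pou3f3, Lhx2 and Mdga1) and lower at Rasgrf2, while the intervals of Calb1 overlapped. Over all genes tested 66.4% did not overlap in either direction and 34.3% were higher in B1. The log2 ratio of B2 to B1 was -0.79 for Lhx2, -0.77 for Pou3f3, -0.62 for Mdga1, -0.60 for Cux2, -0.56 for Pou3f1 and -0.17 for Cux1, and 0.20 for Rasgrf2 and 0.19 for Calb1. The median absolute ratio over all genes was 0.29.

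GC content moved with this ratio, with a Spearman correlation of -0.56 across 10569 genes, given as a description. The 5 genes with the most negative ratios had 51.1% (Pou3f3) to 63.9% (Pou3f1) GC, against a median of 50.8% over all genes tested. Rasgrf2 and Calb1 had 47.4% and 42.1%. GC content was known only for isoforms with a sequence in GENCODE M21. For Pou3f1 this is Pou3f1-201, listed in B1 alone. For Cux1 it is Cux1-201, which made up 6.06% to 11.6% of the Cux1 FPKM. All values of Pou3f1 and Cux1 corrected for GC content rest on these isoforms. After the correction for GC content the ratio was 0.16 for Pou3f1, -0.38 for Lhx2, -0.39 for Cux2, -0.31 for Mdga1 and -0.78 for Pou3f3. It was -0.24 for Cux1, -0.09 for Calb1 and 0.04 for Rasgrf2, so that Pou3f1 and Calb1 turned in sign. The part of GC content in the difference between the 2 pools of mice was not tested.

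**Figure D3:**
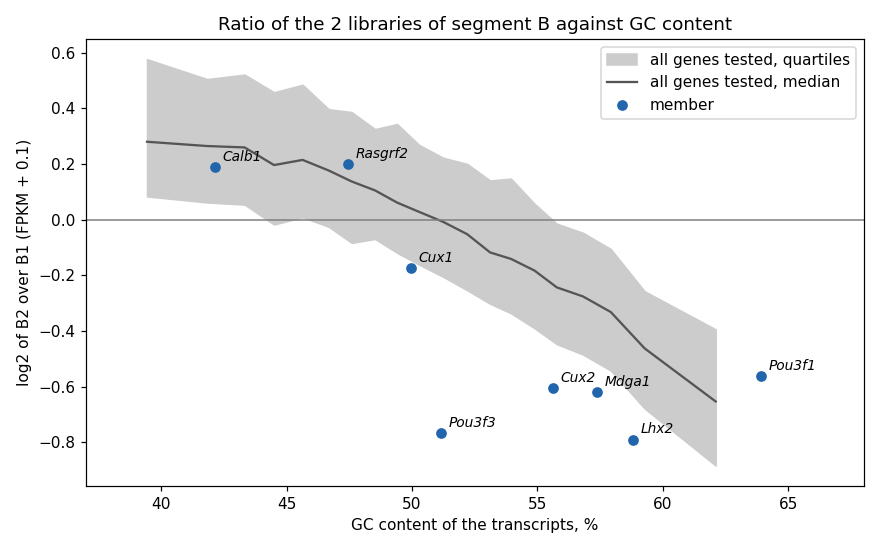
Log2 ratio of B2 to B1 (y axis) against the GC content of the transcripts (x axis) for 8 genes (points), beside the median (line) and quartiles (band) of all genes tested in 20 bins of GC content. The median falls with GC content, and Pou3f3, at 51.1% GC and -0.77, lies far below it.

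The isoforms add to this picture. The files list 18 isoforms of the 8 genes, of which 10 passed the filter on interval width. A minor isoform below 5% of the main one is not listed by the authors' software, so that an isoform without an entry may be left out rather than absent. Superficial against deep, 2 of the 10 isoforms were called higher, Cux1-201 (1.95, 95% interval 1.38 to 2.52, adjusted p = 0.041) and Rasgrf2-205 (2.32, 95% interval 1.62 to 3.01, adjusted p = 0.044), against 0.101% of 14922 transcripts. The most abundant Cux1 model, ENSMUST00000065599, was not called (1.42, 95% interval 0.92 to 1.91, adjusted p = 0.066, limma). Nor was ENSMUST00000111111 of Cux1 (1.81, 95% interval 0.82 to 2.81, adjusted p = 0.117, limma). None of the 10 was called without A, without D, without E or without F.

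Cux1 was dominated by a model that ends 26121 bases beyond the end of the others. The Cux1 locus is known to encode the DNA-binding protein CDP and also, by alternative splicing, CASP, a Golgi protein that lacks the homeodomain. The isoform with the distal end (ENSMUST00000065599, 3065 nt, chr5:136724005-137041567) had 26.6 FPKM in A, 26.9 and 25.7 in B1 and B2, 13.9 and 8.63 in C and D, and 8.12 and 9.56 in E and F, which was 70.6% (B1) to 83.5% (E) of the summed FPKM of the gene. It is not in GENCODE M21, and the files do not say which protein it encodes.

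The other Cux1 models end at the nearer site. Cux1-201 (ENSMUST00000004097, protein coding, 5007 nt) had 3.86 FPKM in A, 4.16 and 3.76 in B1 and B2, 1.36 and 0.908 in C and D, and 0.876 and 0.716 in E and F. ENSMUST00000111111 (4680 nt) had 2.90 in A, 7.03 and 4.35 in B1 and B2, 1.96 and 0.916 in C and D, and 0.727 and 1.55 in E and F. Together they made up 29.4% of the Cux1 FPKM in B1, 24.0% in B2 and 20.2% in A. In the deep libraries they made up 16.5% (E) to 19.3% (C). The shares of A and C lay closer together than those of the replicates B1 and B2. The test of the share found no difference for any of the 3 isoforms (adjusted p = 0.476 to 0.684), with log2 differences of 0.47 for Cux1-201, 0.33 for ENSMUST00000111111 and -0.51 for the distal model. Most of the Cux1 gene level above therefore comes from a model other than Cux1-201.

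Calb1-201, the coding isoform of Calb1 (ENSMUST00000029876, 4222 nt), had 14.3 FPKM in A, 16.7 and 22.1 in B1 and B2, 6.53 and 4.05 in C and D, and 4.34 and 1.95 in E and F. It was highest in B2, while the gene as a whole was highest in A. The remainder came from short models with a retained intron: Calb1-202 (701 nt) had 11.8 (B2) to 16.9 (A) FPKM in the superficial libraries and 1.59 to 4.29 in the deep ones, and Calb1-203 (736 nt) was listed in A alone, with 8.30 FPKM. Calb1-201 made up 36.3% of the Calb1 FPKM in A and 55.0% to 67.5% in the other libraries. In estimated fragments, which grow with length, Calb1-202 and Calb1-203 rested on 371 and 191 in A, against 1898 for Calb1-201. The superficial minus deep difference of Calb1-201 was 2.14 (95% interval 1.22 to 3.06, adjusted p = 0.104), and its share did not pass (-0.43, adjusted p = 0.637).

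Cux2 and Lhx2 have alternative start sites. Cux2-202 (ENSMUST00000111752, 6763 nt, with the first of the start sequences above) had 28.6 to 41.2 FPKM in the superficial and 2.22 to 9.17 in the deep libraries (difference 3.29, 95% interval 2.14 to 4.43, adjusted p = 0.066). Cux2-201, which starts downstream, was listed in B1 (2.30 FPKM), E (0.221) and F (0.473) and in no other library. In E its interval reached 0.

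Lhx2-201 (ENSMUST00000000253, 2291 nt) was listed in all 7 libraries, with 19.9 to 28.3 FPKM in the superficial and 12.1 to 18.8 in the deep ones (difference 0.74, 95% interval 0.25 to 1.23, adjusted p = 0.121). Lhx2-203, whose upstream start sequence is shown above, was listed in B1 (6.22 FPKM, 95% interval 5.45 to 6.99) and D (1.65, 1.19 to 2.10) and in no other library, not in B2. It rests on an estimated 278 fragments in B1 and 69.1 in D. Without it, the Lhx2 level in B1 was 28.3 FPKM in place of 34.5.

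Pou3f1-201 (ENSMUST00000053491, 1351 nt) was listed in B1 alone, with 5.58 FPKM, and the longer model of the gene (ENSMUST00000105033, 3004 nt) was highest in C, with 16.2 FPKM, against 13.2 to 15.0 in the superficial libraries. The peak of Pou3f1 in B1 at the gene level thus rests on an isoform that B2 did not list. Mdga1 and Pou3f3 had 1 isoform each.

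**Figure D4:**
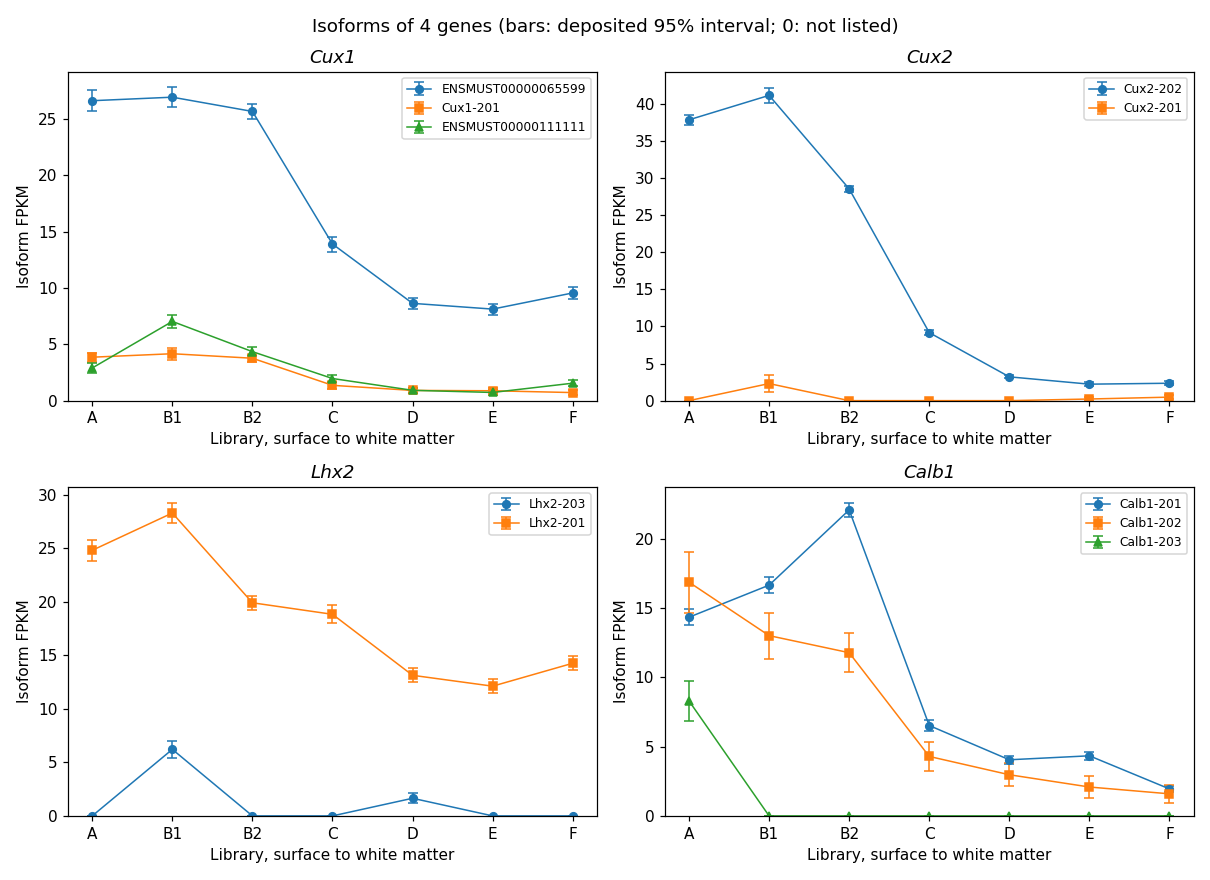
FPKM of the listed isoforms (y axis, from 0) of Cux1, Cux2, Lhx2 and Calb1 in the 7 S1 libraries from the surface to the white matter (x axis), with the deposited 95% intervals as bars and 0 where an isoform has no entry. The distal-end model of Cux1 (ENSMUST00000065599) runs from 26.9 in B1 to 8.12 in E above the other Cux1 isoforms, and Calb1-201 is highest in B2 while Calb1-202 and Calb1-203 are highest in A.

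The study counted genes whose isoforms change in opposite directions between libraries. It narrowed these further by predicted layer enrichment, which was not computed here. The criterion of opposite directions takes nonoverlapping intervals. Of the 1995 genes with at least 2 isoforms that passed the filter, 82.1% met it in some pair of libraries. In the pair of replicates 38.7% did. Of the 8 genes only Cux1 had 2 or more such isoforms, and it met the criterion in no pair as deposited and in 1 pair (A and B1) by the median of ratios. Without the filter, Cux2, Pou3f1, Lhx2 and Calb1 met it, 4 of the 5 of these genes with at least 2 isoforms. Of all such genes, 73.4% did. For Cux2, Pou3f1 and Lhx2 this rests on an isoform counted as 0, without an interval, in a library that did not list it. Such an isoform may be left out rather than absent. By the rule above its level would lie under 5% of the main isoform, but it has no interval. Nonoverlap as the criterion asks is therefore not shown for these genes. The share of all such genes counts unlisted isoforms in the same way. In the test of isoform shares, none of the 7 isoforms counted, 3 of them of Cux1, passed (adjusted p = 0.429 to 0.961, limma), none at an unadjusted p under 0.05, against 0.462% of 8226 transcripts called in either direction and 0.182% called higher. Rasgrf2, whose isoforms lie at 2 places, was not counted among the 7. The other isoform of Cux2, Lhx2 and Pou3f1 was listed in 3, 2 and 1 of the 7 libraries. Where it was not listed, the value set the level of the main isoform against the added 0.1 FPKM. For these genes the test therefore cannot tell a difference of share from a difference of level. Its result speaks to shares for Cux1 and Calb1 only.

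Further models lie inside these genes. A short gene model of 416 nt (ENSMUSG00000072641, chr5:122308562-122308977) lies at the end of Cux2 and was listed in A (100.3 FPKM) and B2 (41.1 FPKM) and in no other library. Scaled to the length of Cux2 this comes to 6.17 and 2.53 FPKM, and with it added Cux2 was highest in A, with 44.0 against 43.5 in B1. The library kit does not mark strand, so reads of overlapping and antisense models cannot be assigned by strand.

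Among close relatives of the 8 genes, 5 of 9 were tested and none was called in either direction (limma, 1 higher and 2 lower at an unadjusted p under 0.05, against 4.84% and 29.0% of all genes). Calb2, which encodes calretinin, had the single positive value, with a difference of 0.92 (adjusted p = 0.086). Rasgrf1 (-0.31, adjusted p = 0.658), Mdga2 (-0.84, 0.086), Pou3f4 (-0.75, 0.086) and Satb1 (-0.72, 0.287) had negative values. Lhx5, Lhx6 and Lhx9 did not pass the filter on intervals and Lhx1 was not matched.

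Other genes known for layers 2 to 4 had a median difference of 0.99 over the 13 of 17 tested, with 10 positive and 3 negative values. Nectin3, a cell adhesion molecule, was called higher (1.59, adjusted p = 0.020, limma), and none was called lower. Of all genes tested, 0.184% were called higher and 0.307% lower. The values ran from -0.75 for Matn2 to 1.88 for Plxnd1, a semaphorin receptor. All superficial libraries lay above all deep ones for 7 of the 13 and for 4.71% of all genes. Genes known for deep layers had a median of -2.07 over 10 of 13 tested, from -3.79 for Ccn2, a marker of layer 6b, to -0.89 for Sox5. Bcl11b, Crym and Ldb2 were called lower in superficial segments (-1.73, -3.11 and -1.59, adjusted p = 0.029, 0.026 and 0.011, limma), as were 0.307% of all genes. None of the deep layer genes was called higher.

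**Figure D5:**
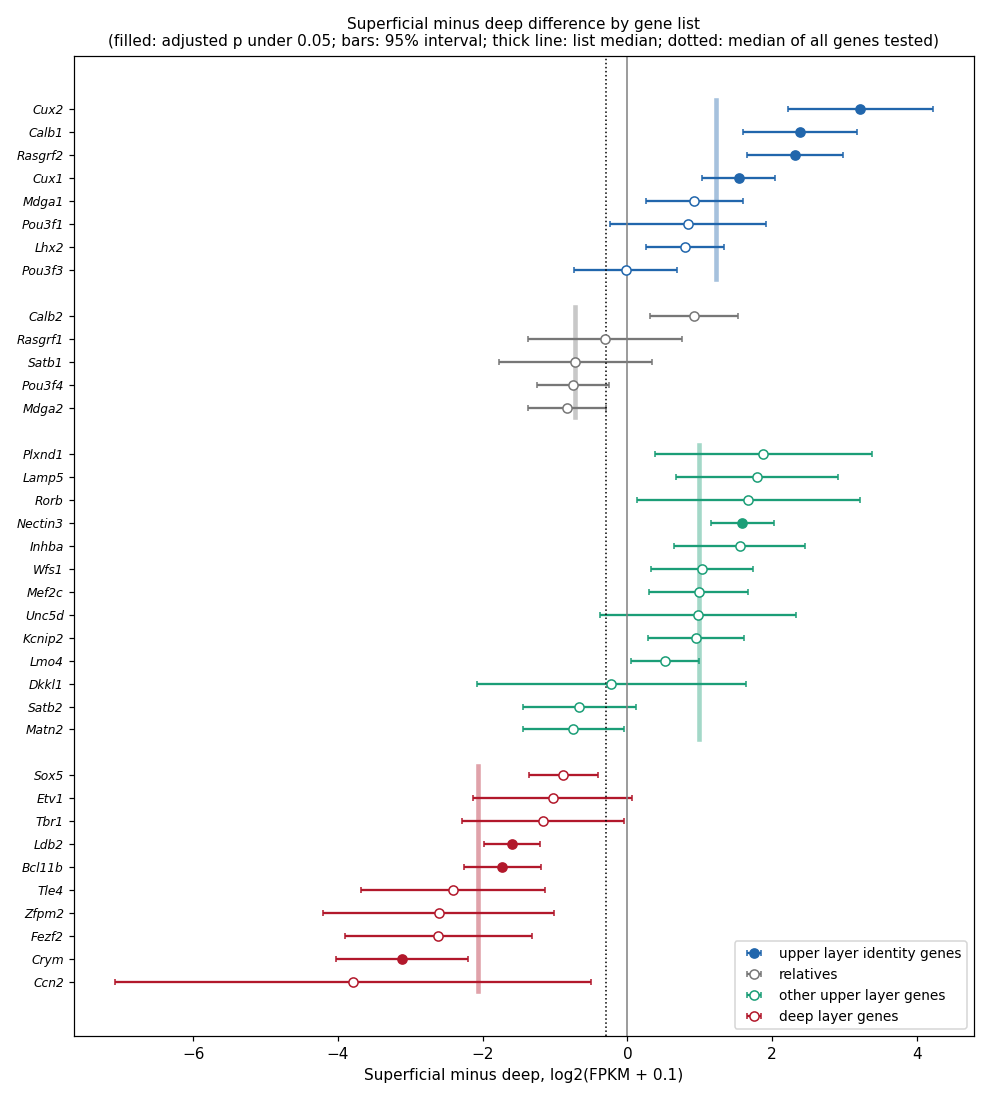
Superficial minus deep difference on the log2(FPKM + 0.1) scale (x axis) for the tested genes of 4 lists (y axis), with the 95% interval of the limma fit as bars, filled points for an adjusted p under 0.05, thick lines for the median of a list and a dotted line for the median of all genes tested. Cux2 lies highest at 3.22, and the 10 deep layer genes all lie below 0.

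Levels of cell type markers stand beside these differences, and none of the lists of neurons was called. The 4 excitatory neuron markers summed to 1332 to 1754 FPKM in the superficial and 1275 to 1419 in the deep libraries, with none of 4 called (1 higher and 2 lower at an unadjusted p under 0.05, against 4.84% and 29.0% of all genes). Their geometric mean in A was 0.559 of the average library, against 0.918 to 1.18 in the others. Relative to it, Cux1, Cux2 and Rasgrf2 were called and Calb1 was not (2.84, adjusted p = 0.060). Calb1 is also known in interneurons, whose 8 markers summed to 485 to 512 FPKM in the superficial and 486 to 710 in the deep libraries, with none of 7 tested called (1 higher and 2 lower at an unadjusted p under 0.05, against the same shares of all genes).

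Levels of glial and vascular markers are given by their sums. None of the 6 oligodendrocyte markers was called, 6 of 6 were lower at an unadjusted p under 0.05 (29.0% of all genes were), and their sum was 287 to 783 FPKM in the superficial and 1513 to 11490 in the deep libraries. Astrocyte markers summed to 134 to 145 and 138 to 267, microglia markers to 35.2 to 62.0 and 47.5 to 73.4, oligodendrocyte precursor markers to 4.53 to 9.76 and 12.7 to 36.0, and endothelial markers to 36.9 to 63.1 and 26.1 to 29.0 FPKM. The 4 pan-neuronal markers summed to 1081 to 1998 and 1814 to 2472. These sums follow their most abundant members and hide differences of both signs. Among pan-neuronal markers 3 had a negative difference and Rbfox3 a positive one (1.05, mean 272 FPKM in superficial and 130 in deep libraries). Astrocyte markers had 2 positive and 3 negative values, and microglia markers had 1 positive (C1qa, 0.17) and 3 negative values. The part of cell composition in the differences of the 8 genes was not tested.

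The genes whose levels followed the 8 most closely were found by Pearson correlation of log2(FPKM + 0.1) over the 7 libraries, among 10145 genes. Cux1 and Cux2 were each other's closest gene (0.993), and Rasgrf2 was closest to Calb1 (0.992). For Cux1 the next were Ddit4l (0.992) and Myom3 (0.977), and for Cux2 they were Camk2n2 (0.991), an inhibitor of CaM kinase II, and Cchcr1 (0.988). Camk2n1, the other inhibitor of that kinase, was among the closest of both Rasgrf2 (0.984) and Calb1 (0.990), whose other neighbours were C130074G19Rik (0.983) and Prkg2 (0.992). The libraries share mice, and the values are given as a description over 7 points.

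The remaining 4 genes had neighbours outside this set. Lhx2 followed B3gat3 (0.988), Rtl8c (0.988) and Clba1 (0.984), and Mdga1 followed Ghdc (0.977) and Pcnx3 (0.975). Pou3f1 followed Fam163a (0.983), Gm10493 (0.983), which is listed at 0 in E and F, and Rell2 (0.973), and Pou3f3 followed Med9 (0.993), Tril (0.987) and C530008M17Rik (0.986). Among the 8 genes themselves, the pairs of Cux1, Cux2, Rasgrf2 and Calb1 had correlations of 0.940 to 0.993, while Pou3f3 had -0.105 (Mdga1) to 0.365 (Pou3f1) with the other 7.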

How the data were processed

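Polyadenylated RNA of the 7 S1 libraries was sequenced from both ends. The authors aligned the reads to mm9 (TopHat) and estimated levels of the Ensembl release 57 models (cufflinks). The submitters' processing notes name TopHat 1.0.13 and Cufflinks 0.8.3. The deposited FPKM of genes and transcripts come with 95% intervals, on a linear scale. The deposited fraction gives how much of its locus a transcript takes up, and the deposited coverage (signal) is estimated read depth, used here with 50 nt reads to estimate fragments. A model that a library does not list counted as 0 there. The tables of de novo models were not used.

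Symbols and GC content came from GENCODE M21 by identifier (22447 of 24130 genes had a symbol). Genes at 2 places were kept apart. Gene values lay within 1% of their summed transcripts for 98.5% of values.

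Differences were fitted with limma 3.58.1 (R 4.3.3) on log2(FPKM + 0.1), with a mean-variance trend, over genes whose widest interval was at most 50% of the mean, and p-values were adjusted by Benjamini-Hochberg over all genes tested. All libraries but B1 and B2 are single pools, so p-values measure the spread between libraries of a side. The fit was also run on simulated data with independent noise scaled from the spread of B1 and B2. Those data held no differences between layers of a side, so that run does not measure how reliable the calls are. Genes were named by a rule: the 9 genes, their isoforms and relatives, for each gene the 3 most correlated genes of at least 1 FPKM (1 of them is not reported here), and for other layer lists the lowest, the highest and the called genes. The members and lists were chosen with earlier results of these data known. Alternatives varied the pseudocount (0.01 and 1), filter, scaling, GC correction, interval widths and libraries, and 6 were added after seeing the data.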

Additional observations from a re-analysis of the deposited data

How the results depend on the processing

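No paired analysis was possible because the labels give replicate numbers within segment B only, so that no 2 groups share them. Of the 11411 genes, 56 were called between superficial and deep segments, 21 of them higher. The total was 37 without mitochondrial genes, 36 with B1 and B2 averaged and 34 relative to excitatory markers, and 10 to 316 with single libraries left out (7 to 80 higher). Of the 8 genes, 4 were called, against 1 without the filter, 0 with B1 and B2 averaged and 0 to 4 with single libraries left out. Pou3f3 turned from -0.02 to 0.30 (median of ratios and GC correction), 0.13 (without mitochondrial genes), 0.14 (E and F as deep side), 0.43 (relative to excitatory markers), 0.32 (without A), 0.03 (without C) and 0.03 (without D), with -0.39 to 0.32 over the single libraries left out. Its transcript turned by the median of ratios and without A, C or D, to the same values. The cause was not tested.

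The trend was called for 5049 genes, for 3209 after GC correction, 2207 with the linear term only and 1240 to 6773 with single libraries left out. Lhx2 passed in 6 of 18 alternatives, and Mdga1 did not in 7. For transcripts, 30 were called (15 higher), 210 (107 higher) without the filter and 15 to 197 (9 to 49 higher) with single libraries left out, and 0 to 4 isoforms of the 8 genes against 2. For isoform shares 38 were called (15 higher), against 65 (28) and 17 (8) with a pseudocount of 0.01 and 1, 136 (65) without the filter, 19 with the deposited share and 3 to 404 (2 to 168) with single libraries left out. Uncalled shares turned for Cux1-201 (-0.076), ENSMUST00000111111 (-0.11) and Lhx2-201 (0.11) with a pseudocount of 1, and for Cux2-202 (-1.65) with the deposited share. Calb1-201 turned without A (0.046, others down to -0.81). Lhx2-201 turned without B1 (1.66), C (0.25), E (0.04) and F (0.12), others down to -1.30. The value for Pou3f1 turned without B1 (0.68, others down to -2.29). No library but B1 lists its other isoform, so without B1 this value is a difference of level and not of share. Most libraries also do not list the other isoform of Cux2 and Lhx2. Except with the deposited share, the values of Cux2, Lhx2 and Pou3f1 therefore mix level and share. The deposited share refers to the locus and not to the gene. For Cux2-202 it was 83.0% in A and 90.9% in B2, where no other Cux2 isoform was listed. The overlapping model of 416 nt was listed in A and B2 only. The turn of Cux2-202 with the deposited share therefore does not speak to the isoforms of Cux2.

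The number of the 8 genes highest in A was 2, against 5 by the median of ratios, 4 after GC correction, 1 without mitochondrial genes and 1 by the most abundant isoform, and 2 to 4 without B1 or B2. They were highest in A or B for 8 genes, and for 6 to 8 without B1 or B2. The same shares over all genes were not computed. Isoforms in opposite directions were found in 1638 genes and in 6852 without the filter. With intervals widened 2 times, neighbours differed at 1 of the 8 genes between A and B, where 46.5% of all genes did. This count was 6 by the median of ratios (58.9% of all genes) and 2 as deposited (62.8%). With widened intervals it was 2 between D and E (24.4% of all genes) and 2 between E and F (32.3%). The pools of 8 mice have no replicates, which limits every comparison between segments.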
